A study of Homo sapiens with 8 samples.

Results

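Open chromatin at the loci of PAX5 and EBF1 was described from ATAC-seq peak lists of 697 and KOPN-8, which are established B cell precursor acute lymphoblastic leukaemia lines. ATAC-seq uses the Tn5 transposase to cut and tag accessible DNA, and a peak is a stretch where these cuts pile up above the local background. In each line, cells with an empty sgRNA vector and intact SETD2 served as control. They were set against 1 clone with a heterozygous knockout of SETD2, a histone H3 methyltransferase of transcribed genes. The clones were BM_B in 697 and BA in KOPN-8. Each of the 4 groups had 2 libraries labelled as biological replicates, and the labels do not say how their cultures were separated, so p-values measure the spread between these libraries, which may be partly technical. Because every knockout library of a line came from the same clone, differences of that clone and of the edit cannot be told apart.

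A peak belonged to the PAX5 locus when it overlapped hg19 chromosome 9 between 36.75 and 37.45 Mb, and to the EBF1 locus when it overlapped chromosome 5 between 158.05 and 158.65 Mb. The windows are 700 kb and 600 kb long. Of the 532743 peaks of the 8 lists, 350 lay in the PAX5 window and 285 in the EBF1 window. Peaks of different libraries that shared at least 1 bp were merged into regions. The windows then held 80 and 65 regions, together 145 of 133028.

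EBF1 and PAX5 are transcription factors of the B lineage. EBF1 is a helix-loop-helix protein that acts early in B cell specification and opens the chromatin of B cell genes, PAX5 among them. PAX5 is a paired-domain protein that holds cells to the B lineage by activating B cell genes and repressing those of other lineages, and it acts back on the EBF1 gene. Both genes can be deleted or mutated in B cell precursor leukaemia. In the RefSeq gene order of GRCh38 the next protein-coding genes after PAX5 are ZCCHC7, a zinc knuckle protein, and GRHPR, an enzyme of glyoxylate metabolism. PAX5 is read from the minus strand, so ZCCHC7 and the PAX5 enhancer known in it lie on the upstream side of PAX5, at higher coordinates. The reference sequence just before each annotated start is printed to show the motifs of B lineage factors at the genes' own promoters. No annotation in hg19 was used, so no peak was assigned to a start site, an exon or an intron, and positions in the 2 builds must not be compared. Capitals mark GGGAA, the core bound by Ikaros factors, and CAGCTG, an E-box bound by E proteins, each on either strand. The sequences are the 250 bases before the start, 5′ to 3′ on the minus strand, from RefSeq in GRCh38.p14, at chr9:37034269-37034518 for PAX5 and chr5:159097957-159098206 for EBF1.
PAX5: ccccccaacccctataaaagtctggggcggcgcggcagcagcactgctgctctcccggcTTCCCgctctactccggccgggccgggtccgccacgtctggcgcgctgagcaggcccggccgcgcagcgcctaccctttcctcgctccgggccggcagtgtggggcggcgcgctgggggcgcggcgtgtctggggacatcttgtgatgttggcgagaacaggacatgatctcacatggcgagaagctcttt
EBF1: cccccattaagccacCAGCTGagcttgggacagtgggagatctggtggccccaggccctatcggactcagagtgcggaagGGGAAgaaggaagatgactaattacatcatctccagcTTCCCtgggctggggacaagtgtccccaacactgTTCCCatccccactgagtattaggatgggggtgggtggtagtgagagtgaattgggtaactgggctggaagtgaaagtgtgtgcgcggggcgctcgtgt

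The EBF1 promoter held 3 matches to GGGAA and 1 to CAGCTG, and the PAX5 promoter held 1 and 0. Of 35116 promoters of this length in the table, 59% held GGGAA and 14% held CAGCTG. The palindromic EBF1 motif of 10 bases, searched on both strands, was found in 1.06% of promoters and in neither of these. No match overlapped another, and a match is a description of the letters, not a site of binding.

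Averaged over the 8 libraries, both loci were rich in open chromatin. The genome was cut into windows of the same lengths, and windows without a peak in any list were left out. The PAX5 window held 43.75 peaks on average over the 8 lists, more than 98.8% of the 4064 remaining windows of 700 kb, whose median was 14.5. The EBF1 window held 35.6 peaks, more than 97.8% of the 4733 remaining windows of 600 kb, with a median of 12.25. Shares of windows given below are over these windows, which were not matched to the loci for peak number. Peaks covered between 1.92% and 2.95% of the PAX5 window and between 1.94% and 2.83% of the EBF1 window. The full lists held between 57154 and 76495 peaks and their read depth is unknown. A longer list can hold more peaks at any locus, so each count below was also taken with lists of equal length.

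In the 697 clone the PAX5 window held more peaks than in its controls. The controls had 33 and 40 peaks there and the clone libraries 47 and 54, so both clone libraries lay above both controls. The means were 36.5 ± 4.95 and 50.5 ± 4.95 peaks (SD, n = 2), a difference of 14 peaks, against a median difference of 1.5 over the 700 kb windows. Both clone libraries were above both controls in 21.9% of those windows. Most of those windows held far fewer peaks, with a median of 14.5 against 43.75 at PAX5. A denser window can differ by more peaks, and windows of like peak number were not compared. Peaks covered 13.4 and 15.0 kb of the control window but 17.5 and 20.7 kb of the clone window, again without overlap, which was the case in 29.5% of windows. Per 10000 peaks of the list, the window took 5.77 and 5.71 in the controls but 7.46 and 7.06 for the clone. With every list shortened to its strongest 57154 peaks the difference fell to 5.5 peaks, and in the strongest 50% of each list to 2. The additional peaks were thus mostly among the weaker calls of the lists, and the median percentile of the window's peaks by fold was 53.0 and 47.5 for the controls but 32.2 and 39.9 for the clone.

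KOPN-8 showed a smaller difference of the same direction at PAX5. Its controls had 44 and 40 peaks, its clone libraries 45 and 47, or 42 ± 2.83 and 46 ± 1.41 (SD, n = 2). The clone libraries stood just above both controls, as they did in 14.8% of 700 kb windows. Covered sequence, at 18.4 and 16.2 kb for the controls against 18.8 and 18.3 kb for the clone, overlapped between the arms. The difference of 4 peaks was 2 without KOPN-8 control 2 and 6 without KOPN-8 control 1. It was 4.5 with lists of equal length and -0.5 in the strongest 50% of each list. Over both lines the PAX5 window held 9 more peaks per clone list (exact permutation within lines, two-sided, p = 0.0556, adjusted p = 0.167 over 6 tests). This p is the smallest that 2 against 2 libraries in each of 2 lines can give, and within 1 line it is 0.333, so no comparison of arms could pass the threshold of 0.05. Covered sequence differed by 3.07 kb and median width by -9.75 bp (exact permutation, adjusted p = 0.167 and 0.2).

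**Figure D1:**
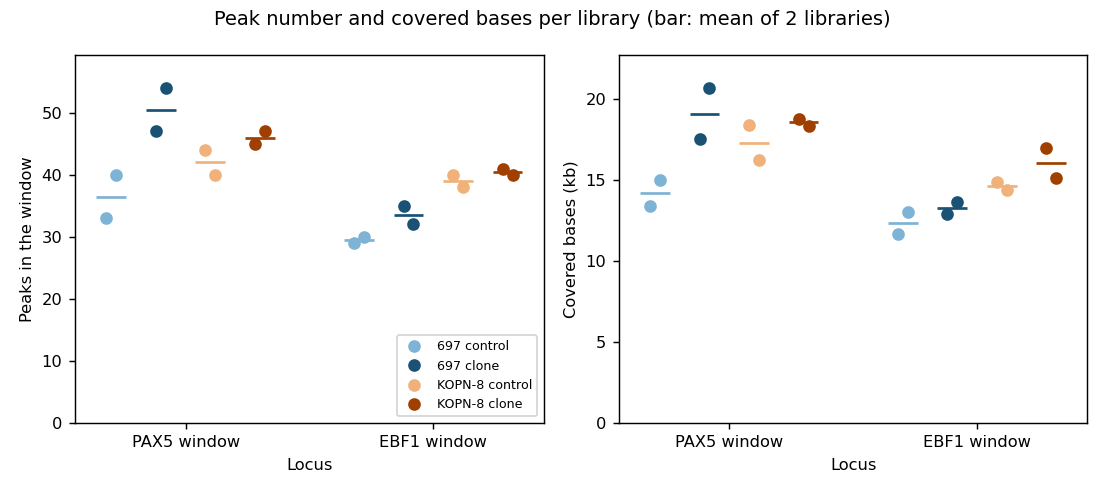
Peaks (left) and covered sequence in kb (right) in each window, 1 point per library, with a bar at the mean of the 2 libraries of a group. At PAX5 the 697 clone, with 47 and 54 peaks, stands above its controls, with 33 and 40, and at EBF1 all KOPN-8 libraries, with 38 to 41 peaks, stand above all 697 libraries, with 29 to 35.

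At EBF1 the arms differed less. The 697 controls had 29 and 30 peaks and the clone 35 and 32, a difference of 4 peaks, with no overlap, which was also so in 21.6% of the 600 kb windows. It was 2 with lists of equal length, 1 with peaks up to 500 bp apart joined, -1.5 in the strongest 50% of each list and 2.5 without 697 clone 1. The KOPN-8 controls had 40 and 38 peaks and the clone 41 and 40, a difference of 1.5, which was 0.5 without KOPN-8 control 2 and 2.5 without KOPN-8 control 1. Over both lines the difference was 2.75 peaks (exact permutation, two-sided, p = 0.111, adjusted p = 0.167) and -1.25 in the strongest 50% of each list. In 697 covered sequence at EBF1 was 11.7 and 13.0 kb for the controls against 12.9 and 13.7 kb for the clone, which overlapped. In KOPN-8 it was 14.9 and 14.4 kb for the controls against 17.0 and 15.1 kb for the clone. These ranges did not touch, as in 23.0% of windows. Over both lines covered sequence differed by 1.17 kb (exact permutation, adjusted p = 0.167), or 0.706 kb without KOPN-8 clone 1, and the median width by -3.62 bp (adjusted p = 0.889).

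Between the lines the libraries separated at EBF1, without passing the adjusted threshold. All 4 KOPN-8 libraries held more peaks in the EBF1 window, 39.75 ± 1.26, than any 697 library, 31.5 ± 2.65 (SD, n = 4). The difference of 8.25 peaks had the smallest p that 4 against 4 libraries allow (exact permutation, two-sided, p = 0.0286), but did not pass after adjustment over the 6 tests of this kind (adjusted p = 0.0857). Such a separation was seen in 20.8% of 600 kb windows. Covered sequence was 15.3 ± 1.14 kb in KOPN-8 and 12.8 ± 0.834 kb in 697, a difference of 2.51 kb (exact permutation, p = 0.0286, adjusted p = 0.0857), and 22.8% of windows were separated in this way. With lists of equal length the lines differed by 7 peaks and 2.35 kb (exact permutation, adjusted p = 0.0571 for both). In the strongest 50% of each list they differed by 2.25 peaks and 0.981 kb (exact permutation, adjusted p = 0.48 for both). The median width at EBF1 differed by 0.125 bp (exact permutation, p = 1). With 1 line on each side, the test speaks of these 8 libraries and not of other leukaemia lines.

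At PAX5 the lines did not separate in peak number. KOPN-8 held 44 ± 2.94 peaks and 697 held 43.5 ± 9.04 (SD, n = 4), with the 697 controls at or below and the 697 clone at or above the KOPN-8 libraries. The difference of 0.5 peaks (exact permutation, p = 1) changed sign when 697 control 1, 697 control 2 or KOPN-8 clone 2 was left out, to -3, -0.667 and -0.5 peaks. Peaks in this window were 333 ± 5.27 bp wide in KOPN-8 and 314 ± 11.2 bp in 697 by their medians (exact permutation, p = 0.0571, adjusted p = 0.114). Over the whole lists, median widths were 326 to 331 bp in KOPN-8 and 314 to 327 bp in 697.

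**Figure D2:**
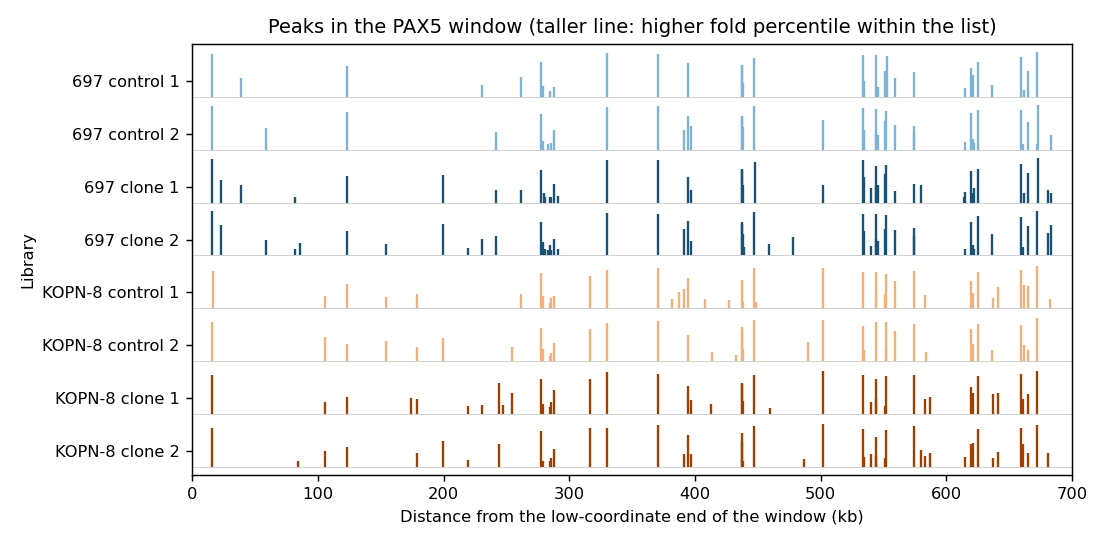
Peaks along the PAX5 window in the 8 libraries, plotted as distance in kb from the low-coordinate end, with taller lines for peaks of higher fold percentile within their list. Most tall lines recur in all libraries, and they are most numerous towards the high-coordinate end, on the side of ZCCHC7 and GRHPR. A tall line of all 4 KOPN-8 libraries, from 37251396 to 37251944 with percentiles from 87.9 to 95.4, was called in only 2 libraries of 697. The extra lines of the 697 clone are mostly short.

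Peaks were unevenly spread along the PAX5 window. Between 37.35 and 37.45 Mb, the end on the GRHPR side, 7 of 15 regions were called in all 8 libraries, and between 37.25 and 37.35 Mb 5 of 14 were. In the 100 kb between 36.85 and 36.95 Mb only 1 of 6 was, and the longest stretch without a region common to all libraries ran for 153.8 kb from 36873670 to 37027518. The extra peaks of the 697 clone were most numerous between 36.75 and 37.05 Mb, where the 3 intervals of 100 kb held 2 and 2, 1 and 1, and 6 and 6 peaks in the controls. In the clone they held 4 and 5, 2 and 3, and 9 and 11. Between 37.05 and 37.15 Mb the clone had 4 and 5 peaks and the controls 3 and 5.

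Of the 80 PAX5 regions, 23 (28.8%) were called in all 8 libraries, against 20.4% of all regions of the genome. In at least 1 library of each line, 42 (52.5%) were called, against 39.5% of all regions. The 5 widest common regions began with chromosome 9 from 37324186 to 37325315, where the peaks of a library covered 270, 513, 357 and 577 bp in 697 and 1103, 827, 1123 and 859 bp in KOPN-8, in the order control 1, control 2, clone 1, clone 2. This covered length is called the width of a region in a library, and every KOPN-8 width exceeded every 697 width there. The next 3 were strong everywhere. The region from 37119988 to 37121104 was called between 758 and 1064 bp wide and never below the 88.1 percentile of fold in its list. The region from 37079384 to 37080456 was 846 to 1073 bp wide, with percentiles from 83.3 to 96.1. The strongest of these 5 regions lay from 37422103 to 37423033, with percentiles from 92.8 to 99.4 and widths from 583 to 912 bp. The fifth, from 37037414 to 37038327, was broad but weak, with percentiles from 11.1 to 48.1.

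Within common regions, width differed between lines at a few sites. Of the 23 PAX5 regions called in all 8 libraries, 2 were wider in every KOPN-8 library than in any 697 library. The opposite order held in 1. These shares of 8.70% and 4.35% were below the 11.6% and 12.4% of the 27107 such regions of the genome. The wide region at 37324186 measured 978 ± 157 bp in KOPN-8 and 429 ± 141 bp in 697 (SD, n = 4), a ratio of 2.28. From 37370981 to 37371532 the widths were 476 ± 49.1 bp and 271.5 ± 35.7 bp. In the neighbouring region from 37369516 to 37370206 the order was the opposite, with 437.5 ± 66.7 bp in KOPN-8 and 601 ± 16.2 bp in 697. These neighbours thus differed between the lines in opposite directions. Between arms, 5 of the 23 were wider in both libraries of the 697 clone and 0 narrower, against 29.8% and 7.98% of all such regions, and 6 were wider and 1 narrower in the KOPN-8 clone, against 21.7% and 17.0%. The share of PAX5 regions wider in the 697 clone (21.7%) was thus not above the background.

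The 697 clone gained 7 PAX5 regions, which both clone libraries called and neither control did, and lost 0. That is 8.75% of the regions, against 3.08% gained and 1.32% lost over the genome. Of the gained regions the strongest lay from 36949442 to 36949811, with calls of 314 and 366 bp in the clone, and from 36772480 to 36772782, with 237 and 267 bp. Their percentiles of fold, over all libraries that called them, were between 44.6 and 66.6. The former was also called by KOPN-8 control 2 and KOPN-8 clone 2, while the latter was found in no KOPN-8 library. Very weak gains, with percentiles from 0.263 to 2.28, began at 36831624, 37030656 and 37040616. The remaining ones lay from 37290387 to 37290659 and from 37430829 to 37431139, with clone calls of 200 to 225 bp. With equal list lengths 3 regions were gained, and in the strongest 50% of each list 1. The genome shares above are for the full lists and cannot be set beside these counts.

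The KOPN-8 clone gained 5 PAX5 regions (6.25%) and lost 2 (2.5%), against 2.45% and 2.59% of all regions. The strongest gain was from 36993918 to 36994469, called as 482 and 368 bp in the clone and in no other library, at percentiles of 45.4 to 64.7. The others began at 36969111, 37146457, 37290387 and 37337212. With equal list lengths 4 were gained, and in the strongest 50% of each list 0, with no genome share for either setting. The region from 37308860 to 37309414 was lost in the KOPN-8 clone after calls of 336 and 347 bp in its controls, although all 4 697 libraries called it. The other lost region, from 36903817 to 36904111, was called as 295 and 230 bp in the KOPN-8 controls and as 210 bp in 697 clone 2. The region at 37290387 was gained in both clones, as 209 and 213 bp in 697 and 257 and 223 bp in KOPN-8. It was 1 of 82 such regions in the genome (0.0616%), and its percentiles were low, from 11.1 to 23.2.

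Of the PAX5 regions, 15 were called in 697 libraries alone and 23 in KOPN-8 libraries alone. A single library called 19 of the 80. The genome shares of these patterns are not given here. Few PAX5 regions were called throughout 1 line and nowhere in the other. KOPN-8 had 4 that all its libraries called and no 697 library did (5%, against 7.30% of all regions). The strongest of them lay from 37066087 to 37066741, with calls of 638, 571, 557 and 526 bp at percentiles from 67.4 to 83.7. Those from 36928800 to 36929127, 36855477 to 36855783 and 37333390 to 37333693 were weaker, with percentiles from 10.9 to 46.3. 697 had 1 such region (1.25%, against 5.85%), from 37295816 to 37296090, with calls of 206, 261, 222 and 265 bp.

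**Figure D3:**
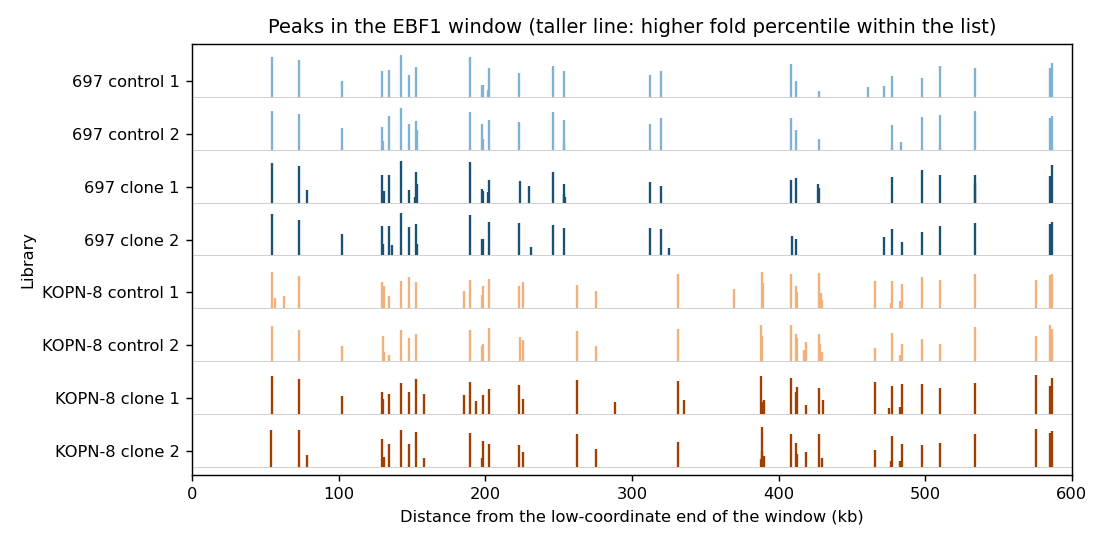
Peaks along the EBF1 window in the 8 libraries, drawn as for PAX5. In the middle of the window the blue (697) and brown (KOPN-8) libraries share no line over 185.0 kb, where 4 positions are constant in 697 and 5 in KOPN-8.

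The EBF1 window had common regions towards both ends. The longest stretch with no region called in both lines, picked for that reason, ran for 185.0 kb from 158273422 to 158458415. Over the genome 39.5% of regions were called in both lines, and how often stretches of this kind occur elsewhere was not examined. It held 18 regions, 8 called by 697 libraries and 10 by KOPN-8 libraries. Of these, 4 were called in all 697 libraries and 5 in all KOPN-8 libraries. At PAX5 the longest stretch without a region called in both lines was 106.9 kb, and it held no region called in all 697 libraries and 1 called in all of KOPN-8. The higher peak number of KOPN-8 at EBF1 was mostly found between 158.45 and 158.55 Mb, where the KOPN-8 lists held 12, 13, 12 and 12 peaks and the 697 lists 7, 6, 6 and 6. From 158.15 to 158.25 Mb the mean was 10.5 in KOPN-8 and 10.75 in 697, and 7 of 15 regions were called in all libraries.

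Of the EBF1 regions, 16 were called in 697 libraries alone (genome share not given here), 8 of them in this middle stretch. All 4 libraries of 697 and none of KOPN-8 called 4 of them (6.15%, against 5.85% of all regions), each in the stretch, and their percentiles ranged from 28.4 to 80.6. The strongest, from 158296156 to 158296509, was called as 347, 317, 263 and 340 bp. It was followed by those from 158362192 to 158362589, 158303275 to 158303908 and 158369231 to 158369611. The region from 158303275 was the widest of the 4, with 247, 540, 505 and 595 bp.

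In KOPN-8 libraries alone 25 EBF1 regions were called (genome share not given here). All 4 KOPN-8 libraries and no 697 library called 10 of them (15.4%, against 7.30% of all regions). The strongest lay from 158437833 to 158438562, with 365, 626, 725 and 604 bp at percentiles from 77.9 to 87.0. Next came 158380950 to 158381396, with calls of 426 to 447 bp, and 158625365 to 158625957, which measured 242 and 300 bp in the controls and 528 and 571 bp in the clone. The regions from 158311972 to 158312691 and from 158275748 to 158276010 followed. The other 5 were weaker in at least 1 list, with smallest percentiles from 1.06 to 18.8. With lists of equal length 4 EBF1 regions had this pattern for 697 and 9 for KOPN-8. In the strongest 50% of each list 2 had it for 697 and 2 for KOPN-8. Genome shares for these shortened lists are not given here.

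**Figure D4:**
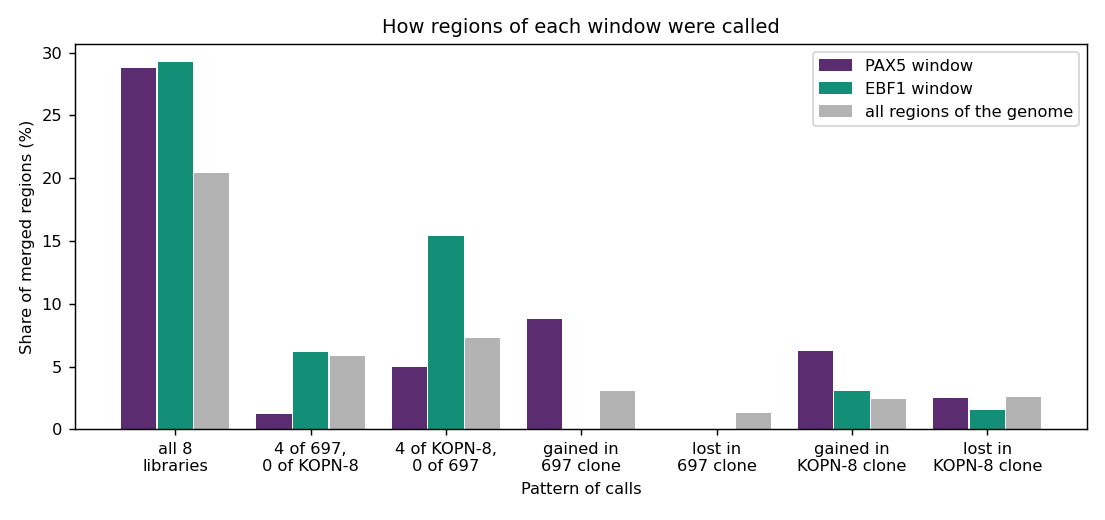
Share of merged regions, in percent, with each pattern of calls in the PAX5 window (80 regions), the EBF1 window (65) and the whole genome (133028). The EBF1 bar for regions called in 4 KOPN-8 and 0 697 libraries (15.4%) and the PAX5 bar for regions gained in the 697 clone (8.75%) stand above the grey bars of 7.30% and 3.08%.

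Of the 65 EBF1 regions, 19 (29.2%) were called in all 8 libraries and 24 (36.9%) in both lines, against 20.4% and 39.5% of all regions. The widest common region, from 158179357 to 158180639, measured between 523 and 1128 bp. The others were from 158635889 to 158636970, with 789 to 1064 bp, from 158103617 to 158104565, with 784 to 910 bp, from 158251950 to 158252789, with 581 to 827 bp, and from 158634583 to 158635417. In the last, the 697 libraries called 761, 728, 627 and 835 bp and the KOPN-8 libraries 394, 451, 450 and 345 bp, so that the means were 738 ± 86.3 and 410 ± 50.9 bp (SD, n = 4). The adjacent region from 158635889 measured 1017 ± 37.4 bp in 697 and 910 ± 115 bp in KOPN-8, with overlap between the lines. In all, 3 of the 19 were wider in every 697 library (15.8%, against 12.4%) and 0 in every KOPN-8 library (against 11.6%). The other 2 that were wider in 697 lay from 158183937 to 158184412 and from 158239270 to 158239802.

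**Figure D5:**
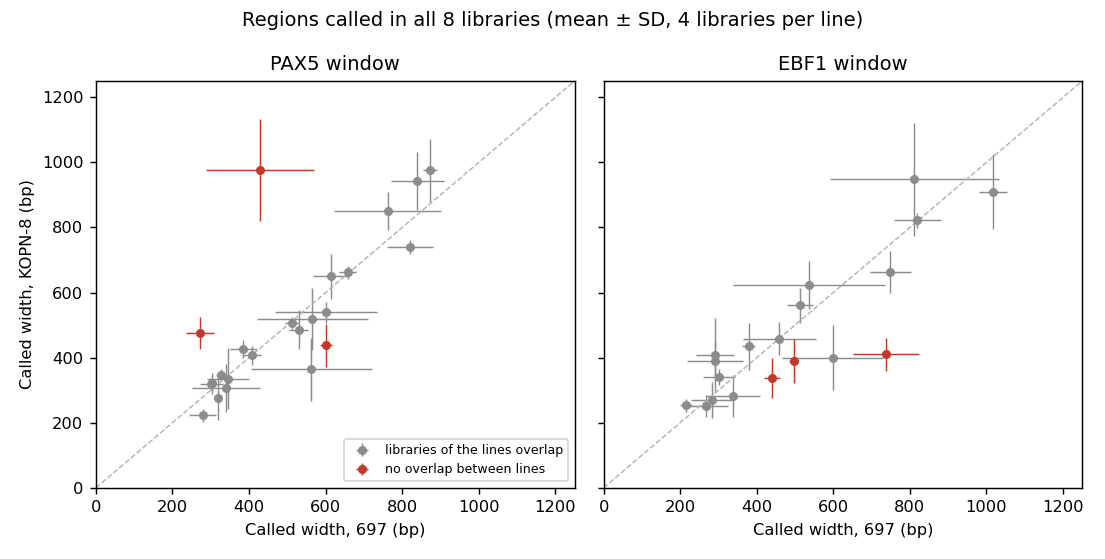
Called width in bp of each region common to all libraries, as the mean ± SD over the 4 libraries of 697 (horizontal) and KOPN-8 (vertical), with a dashed line of equality. Most regions lie near the line, and red points are those without overlap between the lines, 3 of 23 at PAX5 and 3 of 19 at EBF1.

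Neither gain nor loss was called at EBF1 in the 697 clone, 0 and 0 of 65 regions, against 3.08% and 1.32% of all regions. Shares this small come to few of 65 regions, so these counts are near the background. The KOPN-8 clone gained 2 (3.08%) and lost 1 (1.54%), against 2.45% and 2.59% of all regions. The gained regions lay from 158207740 to 158207988, with 240 and 200 bp, and from 158439871 to 158440139, with 265 and 235 bp. The lost region was from 158478383 to 158478693, with 248 and 311 bp in the controls. All 3 were seen in KOPN-8 only and had percentiles of at most 37.4. Among the common regions 4 were wider and 3 narrower in the 697 clone, and 6 wider and 2 narrower in the KOPN-8 clone. Those shares of 21.1%, 15.8%, 31.6% and 10.5% compare with the backgrounds of 29.8%, 7.98%, 21.7% and 17.0%. The regions from 158458416 to 158458909 and from 158583403 to 158584172 were narrower in both clones, and those from 158122516 to 158123058, 158183937 to 158184412 and 158192118 to 158192922 wider in both. How often widths moved alike in both clones over the genome is not given here.

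Called bases overlapped more between the lines at PAX5 than at EBF1. Between a 697 and a KOPN-8 library, the median Jaccard index of covered bases (shared over joint sequence) was 0.517 in the PAX5 window (0.472 to 0.563 over 16 pairs) and 0.441 in the EBF1 window (0.4 to 0.481), against 0.41 over the whole lists. Between a 697 clone and control library it was 0.637 at PAX5 and 0.682 at EBF1, and the range over pairs at PAX5 was 0.559 to 0.667. The 697 control duplicates had 0.642 and 0.73 and the 697 clone duplicates 0.628 and 0.613, so clone and control were no further apart than the clone duplicates by these medians. In KOPN-8 the clone and control pairs had medians of 0.632 and 0.68, below the control duplicates with 0.667 and 0.714 and the clone duplicates with 0.69 and 0.705. Pairs share libraries, so these values are a description without a test.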

How the data were processed

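ATAC-seq gave 8 libraries, 2 per group. Per the submitters' processing notes, Bowtie2 and MACS2 were used with hg19, with no version or setting stated. The authors deposited 1 peak list per library with 1 value per peak, read here, from how the values are spaced, as a ratio (fold over local background), and used only to rank peaks within a list. Read depth is unknown, so no counting interval was given, and precision is that of 2 libraries per group.

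Peaks overlapping a window by at least 1 bp were counted. Across the genome, peaks of any list that shared at least 1 bp formed a region, which was called for each library with a peak in it. Gained means called in both clone libraries and neither control, and lost the opposite. Library values were compared with exact two-sided permutation tests and Benjamini-Hochberg adjustment, over 6 tests between lines and 6 between arms. The regions named per locus were the 5 widest common to all 8 libraries, every gained or lost region, and up to 5 per line that all its libraries and none of the other called, by their smallest percentile. Regions singled out for width were chosen after their values were seen. The loci and tests were chosen with earlier results of these data known. Alternatives were the strongest 50% of each list, the strongest 57154 peaks, a 500 bp joining distance, calls covering 50% of a region, omission of each library, and a replicate block. Scaling by list or chromosome length was chosen after seeing the data. Simulated lists served to test the scripts. No hg19 annotation or genome was used, so marker loci of the cell type and peak sequences were not analysed here. Python 3.11.15 and pandas 2.3.3 were used.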

Additional observations from a re-analysis of the deposited data

Results flagged for a closer look

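Covered sequence at PAX5 in KOPN-8 control 2, at 16.2 kb, lay below the other KOPN-8 libraries of both arms, at 18.3 to 18.8 kb. It only just reached Dixon's criterion for 4 values. It was the only value marked among 12 sets of 4 libraries, and chance marks about 1 in 20 such sets. This library also had the shortest KOPN-8 list, 63585 peaks, whose part in the value was not tested.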

How the results depend on the processing

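In the strongest 50% of each list, the difference in PAX5 peak number was -1.75 between lines, 2 between the 697 arms and -0.5 between the KOPN-8 arms. At EBF1 the clone differences were -1.25 over both lines, -1.5 in 697 and -1 in KOPN-8. EBF1 covered sequence differed by -0.162 kb, and median width over both lines by 11.6 bp at PAX5 and 63.4 bp at EBF1. PAX5 then had 1 region gained in 697, 0 gained and 1 lost in KOPN-8, 2 in all libraries of 697 and none of KOPN-8, 1 of the reverse and 13 common to all libraries. EBF1 had 1 gained and 1 lost in 697, 0 gained in KOPN-8, 2 of each such kind and 8 common. With lists of equal length, PAX5 peak number differed by 0 between lines and 5.5 between the 697 arms, and EBF1 number by 2 between the 697 arms. The PAX5 median width then differed by 52.6 bp between lines. PAX5 had 3 regions gained in 697 and 0 in all of 697 and none of KOPN-8, and EBF1 had 2 lost in KOPN-8. The EBF1 difference in 697 was 1 with peaks up to 500 bp apart joined and 0.192 per 10000 peaks of the list. Per 1000 peaks of the chromosome, PAX5 number differed by -1.07 between lines. With calls covering 50% of a region, 12 EBF1 regions were common. The cause of these shifts was not tested. Genome shares are given for the full lists only, so these region counts have none beside them.

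Leaving out each library, PAX5 peak number differed by -3 to 4 between lines and 2 to 6 between the KOPN-8 arms. EBF1 number differed by 2.5 to 5.5 between the 697 arms and 0.5 to 2.5 between the KOPN-8 arms. EBF1 covered sequence differed by 0.706 to 1.64 kb between arms, and EBF1 median width by -21.4 to 11.8 bp between lines and -26.8 to 19.5 bp between arms. Regions gained in 697 numbered 7 to 13 at PAX5 (13 without 697 control 2) and 0 to 5 at EBF1 (5 without 697 clone 2). Those gained in KOPN-8 numbered 5 to 10 at PAX5 (10 without KOPN-8 clone 1) and 2 to 6 at EBF1 (6 without KOPN-8 clone 2). Losses in KOPN-8 numbered 2 to 9 at PAX5 (9 without KOPN-8 control 2) and 1 to 4 at EBF1 (4 without KOPN-8 control 2), and losses in 697 at EBF1 0 to 1. PAX5 regions in all of 697 and none of KOPN-8 numbered 1 to 3 (3 without 697 control 1). A call rule over fewer libraries is looser by construction, so these counts cannot be read against the genome shares, which are for all 8 libraries.

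Over regions, differences between replicates of control and clone correlated at 0.003 in 697 and -0.0027 in KOPN-8. A correlation over regions does not show a shift common to all regions, so it cannot decide whether replicate numbers pair the libraries. In 697, replicate 2 had the longer list in both arms, 70099 against 57154 peaks in controls and 76495 against 63012 in the clone. In KOPN-8, replicate 1 had the longer list, 70430 against 63585 peaks in controls and 67301 against 64667 in the clone. With a replicate block the PAX5 difference remained 9 peaks by construction (exact permutation of 4 pairs, adjusted p = 0.188). The smallest p that 4 pairs allow is 0.125, so this test could not pass.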
